A study of Homo sapiens with 12 samples.

Results

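The last interval of a 25-day culture is described here: 3 libraries of day 25, labelled as mature γδ T cells, against 3 of day 20, labelled as T progenitors, which are 6 of the 12 libraries in the series. They were chosen by the day in their labels. All came from H9, an established human embryonic stem cell line of wild-type genotype, kept on mouse embryonic fibroblast feeders before differentiation. Cell aggregates received CHIR99021, BMP4, activin A and a Rock inhibitor at the start, then VEGF and bFGF, and from day 6 also Flt3L, IL-7, SCF and SB431542. From day 10 every culture was held in MEM-α with 20% serum, DLL4 (a ligand of Notch), MAP (as abbreviated in the labels) and the cytokines SCF, Flt3L and IL-7, so days 20 and 25 shared their medium and differed in time. The labels name a single cell line and batch and no sorting step. They do not tell whether replicates were independent cultures, and the p-values cover the spread among libraries only.

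T cells carry a receptor built from rearranged αβ or γδ chains and held at the surface by the CD3 chains. Notch signals and IL-7 support the step from blood progenitor to T cell, while cultures that start from pluripotent cells can also yield macrophages, granulocytes, mast cells, red cells and platelets. Macrophages take up debris and lipid, digest it in acid lysosomes and export cholesterol, and some fuse into multinucleated cells such as osteoclasts.

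Total counts were 28537477 to 29946496 at day 20 and 30283113 to 39811230 at day 25, and between 23687 and 24771 genes had a count. Mitochondrially encoded genes held 5.26% to 5.8% of counts, and no library stood apart. Levels are given as CPM, read counts scaled to library size with edgeR's TMM factors, as mean ± SD (n = 3 libraries a day). Folds come from edgeR's quasi-likelihood fit, and a gene is called at a Benjamini-Hochberg adjusted p under 0.05 over the 20183 genes tested. In bulk RNA, fewer cells of a type and less RNA per cell cannot be told apart.

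The label of day 25 went against its defining genes. CD3D, a CD3 chain of every mature T cell, stood at 0.517, 0.0573 and 0.299 CPM in the libraries of day 20 and had 0 counts in all 3 of day 25. CD3G had 14 counts over day 20 and likewise 0 over day 25, where 3 counts over the group would be 0.0287 CPM. No test is given for CD3D or CD3G, so their falls rest on these few counts alone. CD3E stood at 0.304, 0.373 and 0.299 CPM at day 20 and 0.0946, 0.121 and 0.288 CPM at day 25, and did not pass (adjusted p = 0.34). CD3D and CD3G were thus at the detection limit at day 25. At day 20 the CD3 genes were low too, but above 0.0296 CPM, the level of 3 counts over that group. Of 10 T-cell markers 6 could be tested, of which 3 fell and none rose, and their summed level went from between 26.5 and 29.6 CPM to between 10.6 and 12.9 CPM. Most of that sum was TRGC1, a γ chain constant gene. The groups are therefore called by their day.

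Macrophage and granulocyte markers were far above the T-cell markers on both days. Per kilobase of exon, at day 25 CD68 stood at 824 CPM, CSF1R at 267 and the neutrophil marker MPO at 1229, against 0.059 for CD3E and 3.67 for TRGC1. The 7 macrophage markers summed to between 5378 and 5555 CPM at day 20 and between 6385 and 6667 CPM at day 25, with 5 called higher and 2 lower. The 6 neutrophil markers, 2 called higher and 4 lower, went from 17083 to 7014 CPM on average, most of it MPO and PRTN3, and the 4 eosinophil markers from 5625 to 796 CPM. Of other blood types, mast cell and basophil markers summed to 291 and 376 CPM, natural killer markers to 32.8 and 36.6 CPM, B-cell markers to 2.09 and 1.1 CPM and dendritic cell markers to 44.1 and 40.2 CPM. Of the 5 natural killer markers, 2 reached 1 CPM at day 20 and only 1 at day 25, which held most of that sum. Of 4 tested, 1 was lower and none higher. GNLY, the lower one, lost its call without day 25 replicate 2. NCAM1, not called in the main fit, was called higher with DESeq2, its size factors, limma-voom, days 20 and 25 alone, a stricter filter and thinning. It was also called higher without day 20 replicate 3 or day 25 replicate 2, and these settings gave log2 fold changes from 0.19 to 0.26.

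**Figure D1:**
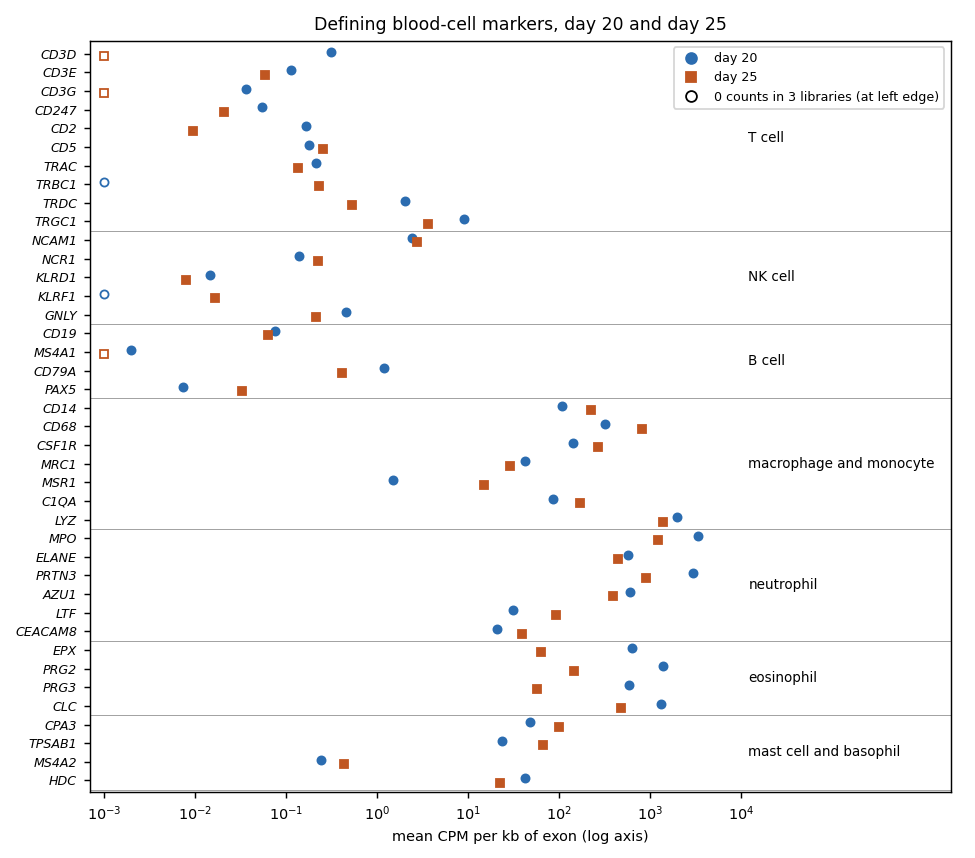
Mean CPM per kilobase of exon (log axis) of defining blood-cell markers at day 20 (circles) and day 25 (squares), with open symbols at the left edge for 0 counts. At day 25 CD3D and CD3G were at 0, while CD68 stood at 824 and MPO at 1229 CPM per kilobase.

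Across all genes, 4952 (24.5% of those tested) were higher at day 25 and 5071 (25.1%) were lower, 10023 (49.7%) in all, with a median log2 fold change of -0.03. At least 2-fold, 1353 (6.7%) were higher and 1385 (6.86%) lower. The 3 libraries of a day lay close together, and for 11500 genes (57.0%) the libraries of the 2 days did not overlap, 5699 (28.2%) higher and 5801 (28.7%) lower. With library-size scaling alone the median of all genes moved to -0.19 and 31.4% of calls were higher, against 49.4% with TMM. Small changes near that shift therefore depend on the scaling, and the lists whose median changed sign are named where they appear.

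The largest gains in CPM included genes of secreted and of lysosomal proteins. The gene of fibronectin, FN1 (chromosome 2 from 215360440 to 215436172 in GRCh38), stood at 719, 724 and 749 CPM at day 20 and at 8796, 8973 and 8741 CPM at day 25. Its libraries were far apart on the 2 days, and the rise was 12.1-fold (log2 fold change 3.6, standard error 0.036, adjusted p = 5.4e-42). CHI3L1, which encodes a secreted chitinase-like protein, stood at 831, 840 and 812 CPM and then at 8572, 8563 and 8829 CPM, a rise of 10.5-fold. SPP1, the osteopontin gene, went from 1991, 1902 and 1892 CPM to 8334, 7867 and 8286 CPM, 4.23-fold higher. These 3 genes, the cathepsin genes CTSB and CTSD, FTL (ferritin light chain), MT-CO1, LIPA (lysosomal acid lipase), APOE and PSAP together gained 42264 CPM. The 10 largest losses, led by MPO and the neutrophil serine protease gene PRTN3, summed to -20374 CPM.

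**Figure D2:**
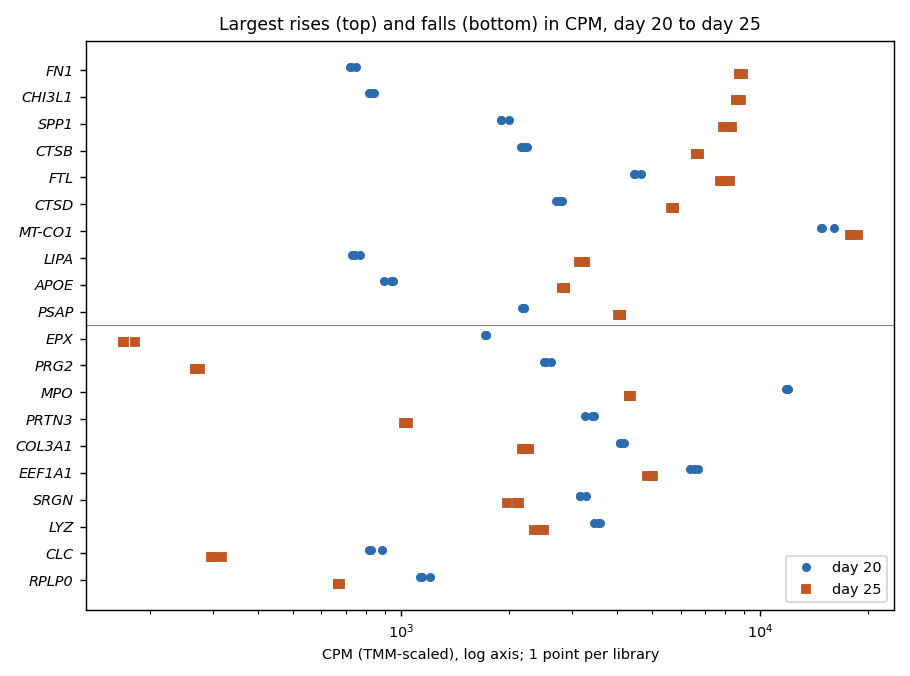
CPM in each library (log axis, circles day 20, squares day 25) of 20 genes, the 10 whose CPM rose and the 10 whose CPM fell by most. FN1 rose from 731 to 8837 CPM and MPO fell from 11859 to 4332 CPM. The genes were chosen among those whose libraries did not overlap.

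In proportion, the largest rises included genes better known from other tissues. SLC6A7, a proline transporter gene of neurons, went from 0.182, 0.229 and 0.12 CPM to 15.5, 14 and 14.4 CPM, 80.6-fold higher. ADRA2B, an adrenergic receptor gene, rose from 0.518 ± 0.3 to 41.9 ± 2.21 CPM, 79.5-fold. INSM1, a transcription factor gene of neuroendocrine cells, rose 20-fold to 15.2 ± 0.593 CPM, and GPC4, a cell-surface glypican gene, rose 20.7-fold from 11.3 ± 1.35 to 235 ± 4.34 CPM. Other genes among the 15 largest rises were TDRD9 (26.2-fold), AFAP1L1 (23.7-fold), CAMK2B (22.9-fold), ISM1 (20.5-fold), MS4A6E (17-fold) and GUCY1A2 (16.2-fold). Among called genes of any level, 119 were at least 10-fold higher and 190 at least 10-fold lower.

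Matrix metalloproteinases, secreted enzymes that cut extracellular matrix, rose broadly: of 20 proteases and inhibitors 14 were higher and 2 lower (median log2 fold change 0.86). MMP12, the macrophage elastase gene (chromosome 11 from 102862736 to 102875034), stood at 20, 20.3 and 18.4 CPM at day 20 and at 508, 495 and 495 CPM at day 25, 25.5-fold higher. MMP7, the matrilysin gene of the same chromosome (102520508 to 102530753), went from 17.5, 14 and 14 CPM to 365, 353 and 362 CPM, 23.8-fold higher. Between them lie MMP8 (102711795 to 102727050), 3.99-fold higher, and MMP1 (102789920 to 102798160), 5.68-fold higher. MMP9, the gelatinase gene on chromosome 20, stood at 69.6, 69.5 and 64.9 CPM and then at 1127, 1186 and 1177 CPM, 17.1-fold higher. MMP13 and ADAM8 were lower, at 1.61 and 0.639 CPM and at 185 and 109 CPM, and only 1 of the list was lower without day 20 replicate 3, day 25 replicate 1 or day 25 replicate 3. The inhibitor genes TIMP1, TIMP2 and TIMP3 rose too, by log2 fold changes of 0.8, 1.32 and 0.88.

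Genes of lipid-laden macrophages rose almost as a whole list, 20 of 21 members, with a median log2 fold change of 1.62. Their summed level went from 7371 ± 186 to 30782 ± 549 CPM, and 18 of 21 were at least 2-fold above each of the other 3 days, against 4.89% of all genes. The list was chosen with earlier results of these data known, so these shares are a description and no test. CHIT1, the chitotriosidase gene of activated macrophages, lies beside CHI3L1 on chromosome 1 and went from 23.2, 22.3 and 21.9 CPM to 537, 530 and 535 CPM, 23.7-fold higher. FABP4, a fatty-acid carrier gene, went from 21.6, 19.6 and 20.7 CPM to 171, 162 and 174 CPM, 8.18-fold higher. LPL, the lipoprotein lipase gene, rose 5.51-fold to 873 ± 18.4 CPM and TREM2, a lipid-sensing receptor gene, 3.98-fold to 373 ± 5.79 CPM. PLIN2, a lipid-droplet coat gene, was the exception and fell from 305 to 198 CPM.

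Genes that handle cholesterol moved unevenly. Of 20 tested genes of lipid export and liver X receptor targets, 10 rose and 7 fell (median 0.29). CYP27A1, a sterol hydroxylase gene, went from 99.9, 104 and 98 CPM to 523, 508 and 500 CPM, 5.07-fold higher. NCEH1, a cholesteryl ester hydrolase gene, rose 4.57-fold and SOAT1, which forms cholesteryl esters, 3.07-fold. The receptor gene NR1H3 itself rose 2.47-fold and PPARG, another lipid-sensing nuclear receptor gene, 2.42-fold. ABCG1, a cholesterol exporter gene, fell 2.87-fold to 7.26 ± 0.585 CPM, and ABCA1 stood at 213 and 180 CPM. Of 24 cholesterol synthesis genes 7 rose and 4 fell, none by 2-fold, and the median of 0.03 became -0.13 with library-size scaling, under which 11 were lower.

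Lysosomal genes rose together: of 33 proton pump subunits, cathepsins and other lysosomal genes 32 were higher and 0 lower (median 0.89). Their summed level was 13455 ± 192 CPM at day 20 and 27892 ± 281 CPM at day 25. CTSB, a cysteine protease gene, went from 2244, 2203 and 2160 CPM to 6614, 6637 and 6747 CPM, 3.03-fold higher. ATP6V1H, a proton pump subunit gene, rose 3.07-fold, ATP6AP2 2.89-fold and CTSS 2.63-fold. TFEB, a transcription factor gene of lysosome formation, went from 14.2, 15.6 and 14.3 CPM to 30.1, 35.4 and 32.3 CPM, 2.22-fold higher, and its relatives MITF (1.78-fold) and TFE3 (1.26-fold) rose less. CTSC, the member not called, stood at 414 and 400 CPM (adjusted p = 0.27).

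TFEB and its relatives bind the CLEAR element, searched here as TCACGTGA, a palindrome, in the 300 bases around each RefSeq start (GRCh38.p14). It was found in 4 of 21 lysosomal promoters that the table held (19%) and in 1.04% of all 27305 promoters. 3 of the 4 are shown, those of the called genes with the largest change in log2 whose letters ended before the start. The letters are in capitals, 5′ to 3′ on the gene's strand:
LAMP1 (chr13:113297139-113297238, plus strand): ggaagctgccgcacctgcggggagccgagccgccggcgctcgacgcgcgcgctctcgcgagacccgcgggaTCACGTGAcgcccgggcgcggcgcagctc
ATP6V0D1 (chr16:67481164-67481263, minus strand): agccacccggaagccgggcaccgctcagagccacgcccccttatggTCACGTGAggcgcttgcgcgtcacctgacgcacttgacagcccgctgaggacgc
CTSA (chr20:45891235-45891334, plus strand): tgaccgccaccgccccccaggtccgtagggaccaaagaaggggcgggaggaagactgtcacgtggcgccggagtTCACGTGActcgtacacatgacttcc
Their genes differed in size of change. LAMP1, a lysosome membrane protein gene, rose from 387 to 597 CPM, ATP6V0D1, a pump subunit gene, from 145 to 222 CPM, and CTSA, a protective protease gene, from 267 to 310 CPM. A match is a description of these letters, and binding was not measured.

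Genes of osteoclasts and of cell fusion rose in 12 of 14 tested members and fell in 2 (median 2.26). DCSTAMP, needed for fusion of macrophages, went from 17, 17.3 and 19.6 CPM to 211, 198 and 208 CPM, 11.4-fold higher. OCSTAMP, its relative in fusion, rose 10.2-fold to 10.7 ± 0.85 CPM and TM4SF19, a membrane protein gene, 34.3-fold from 4.65 ± 0.571 to 159 ± 3.74 CPM. ACP5, the tartrate-resistant acid phosphatase gene, went from 208, 202 and 194 CPM to 867, 856 and 844 CPM, and CTSK, the bone collagen protease gene, rose 7.12-fold. TNFRSF11A, which encodes the receptor for RANKL, stood at 7.69 and 41.4 CPM and SIGLEC15 at 1.47 and 16.9 CPM, both called. ITGB3 and CKB fell, ITGB3 being also a platelet integrin gene (127 and 52.2 CPM), and only 1 of the list was lower without day 20 replicate 2 or day 25 replicate 1. CALCR, the calcitonin receptor gene of osteoclasts, had 8 and 6 counts and was not tested.

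Among receptors of macrophages the pattern was mixed. MSR1, a scavenger receptor gene, went from 12.1, 11.8 and 11.4 CPM to 122, 111 and 118 CPM, 9.94-fold higher, and MARCO stood at 2.42 and 9.8 CPM. Of 18 scavenger and tissue-resident genes 9 rose and 5 fell, among the latter MRC1 (221 and 151 CPM) and SIGLEC1 (278 and 141 CPM). Of 21 monocyte and macrophage core genes 11 rose and 5 fell, with a median of 0.14 that became -0.03 with library-size scaling. CD14, the endotoxin co-receptor gene, rose 2.08-fold to 425 ± 5.19 CPM and CSF1R, the receptor gene of macrophage growth factor, 1.87-fold to 1374 ± 15.5 CPM. TLR8 rose 3.35-fold, LY96 2.87-fold and C5AR1, the complement C5a receptor gene, 3.14-fold.

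Inhibitory receptors rose in 14 of 21 tested members and fell in 6 (median 0.67). HAVCR2, which encodes TIM-3, went from 63.5, 64.7 and 63.4 CPM to 296, 301 and 294 CPM, 4.64-fold higher. LILRB4 rose 10.9-fold to 7.58 ± 0.261 CPM. The T-cell checkpoint genes stood low: PDCD1 at 0.703 and 0.162 CPM and LAG3 at 1.8 and 0.797 CPM, both called lower, and CTLA4 at 0.0581 and 0.741 CPM, called higher. TIGIT had 0 counts on both days.

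Antigen presentation genes rose modestly. Of 13 genes of class II presentation 9 were higher and 0 lower (median 0.45). HLA-DMB, which helps load peptides, went from 24.7, 23.9 and 26.4 CPM to 113, 103 and 107 CPM, 4.29-fold higher, and HLA-DRA stood at 121 and 136 CPM. HLA-DRB1 and HLA-DRB5 are near copies whose reads may be shared, so their values are uncertain. Of 18 dendritic cell genes 10 were lower and 4 higher (median -0.64), while their sum went from 372 ± 5.18 to 433 ± 5.61 CPM. The more abundant members were split. CD83, a maturation marker gene, rose from 89.5 to 162 CPM and CADM1, an adhesion gene, from 41.8 to 87.8 CPM. IRF7 fell from 63 to 39.4 CPM and TCF4 from 49.5 to 43.7 CPM. CD207, the langerin gene of Langerhans cells, fell 21.8-fold to 0.159 ± 0.145 CPM and XCR1 3.24-fold to 0.614 ± 0.163 CPM. FLT3, the receptor gene for the Flt3L in the medium, stood at 1.95, 3.27 and 3.08 CPM and then at 0.757, 0.723 and 0.768 CPM, 3.68-fold lower.

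**Figure D3:**
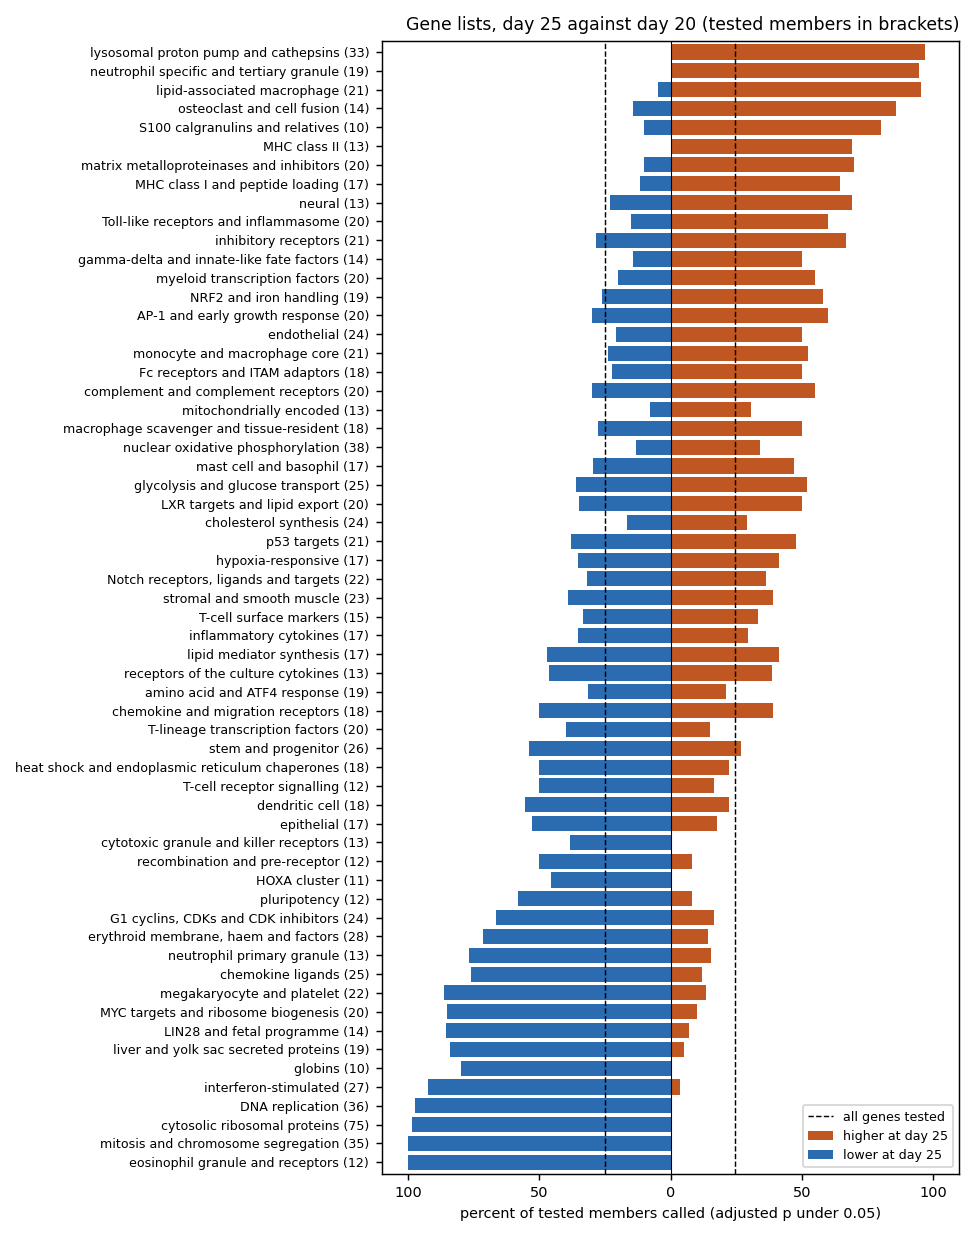
Percent of tested members called higher (right) or lower (left) at day 25 against day 20 in each list with at least 10 tested members, with dashed lines at 24.5% and 25.1% for all genes. Lysosomal genes lie at the top with 32 of 33 higher, and mitosis and eosinophil genes at the bottom with 35 of 35 and 12 of 12 lower.

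Neutrophil genes split by the granule their proteins enter. Primary granules form early in neutrophil development, and specific and tertiary granules later. Of 13 primary granule genes 10 fell and 2 rose (median -0.65), and their sum went from 18507 ± 213 to 7840 ± 68.1 CPM. MPO, the myeloperoxidase gene, went from 11823, 11912 and 11842 CPM to 4297, 4379 and 4321 CPM, 2.74-fold lower, and PRTN3 fell 3.26-fold. ELANE, the elastase gene, fell less, from 584 to 462 CPM. Of 19 specific and tertiary granule genes 18 rose and 0 fell (median 0.89), with a sum of 2005 ± 26.7 and 4722 ± 45.3 CPM. LTF, the lactoferrin gene, went from 131, 132 and 138 CPM to 391, 402 and 397 CPM, 2.97-fold higher, and MMP8, the neutrophil collagenase gene, 3.99-fold. CAMP, LCN2 and ARG1 rose by log2 fold changes of 1.33, 1.07 and 1.27. CHIT1 and MMP9 are in this list, and their rises given above make up much of the gain in its sum. Both are made by macrophages too, which bulk RNA does not separate. DEFA1 and DEFA3 are near-identical and uncertain.

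Eosinophil genes fell in all 12 members of their list (median -1.65), and the sum went from 6361 ± 118 to 1029 ± 15.5 CPM. EPX, the eosinophil peroxidase gene (chromosome 17 from 58192737 to 58205174), went from 1725, 1721 and 1710 CPM to 169, 168 and 181 CPM, 9.96-fold lower. MPO, its neutrophil relative on the same chromosome (58269856 to 58280935), fell 2.74-fold. PRG2, the major basic protein gene, fell 9.46-fold from 2616, 2506 and 2532 CPM to 267, 266 and 276 CPM, and its neighbour PRG3 10.4-fold. The cytokine receptor gene IL5RA stood at 45.1 and 16.9 CPM and SIGLEC8 at 50.6 and 17.9 CPM, both called. Mast cell genes moved in both directions. TPSAB1, a tryptase gene whose near copy TPSB2 makes both uncertain, rose 2.83-fold and CPA3, a mast cell protease gene, 2.1-fold. KIT, the receptor gene for SCF, went from 117, 114 and 120 CPM to 243, 229 and 237 CPM, 2.02-fold higher. HDC, the histidine decarboxylase gene, fell 1.9-fold. Of 17 tested mast cell and basophil genes 8 rose and 5 fell.

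**Figure D4:**
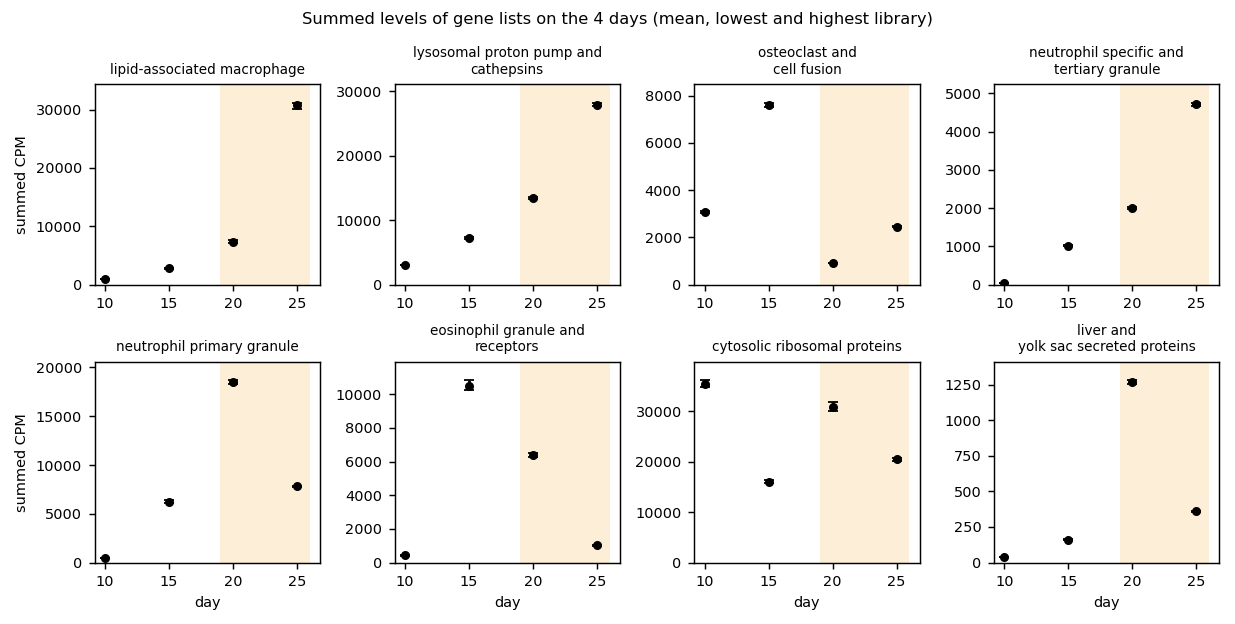
Summed CPM of 8 gene lists on days 10, 15, 20 and 25 (mean with bars to the lowest and highest of 3 libraries, interval described here shaded). Lipid-associated macrophage genes reached 30782 CPM at day 25, while neutrophil primary granule genes stood highest at day 20, at 18507 CPM.

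Genes of the T lineage were low and moved in both directions. TRGC1 went from 25.5, 25.9 and 22.8 CPM to 9.05, 10.7 and 10.3 CPM, 2.46-fold lower, and TRGC2 fell 2.84-fold, though the pair are near copies and uncertain. TRDC, the δ chain constant gene, went from 0.943, 2.03 and 1.4 CPM to 0.221, 0.723 and 0.192 CPM, 3.65-fold lower. Among variable genes TRDV2 had 23 and 5 counts, TRGV9 32 and 20, and TRDV1 0 on both days. Of 12 tested members of receptor signalling 6 fell and 2 rose (median -0.3), with PRKCQ, a kinase gene, from 7.73 to 1.5 CPM and LAT, an adaptor gene shared with platelets and mast cells, from 48.9 to 25.7 CPM. LCK, the kinase gene of the CD3 complex, had 17 and 14 counts and was not tested.

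T-lineage transcription factor genes fell in 8 of 20 members (40%, against 25.1% of all genes tested) and rose in 3 (15%, against 24.5%). Their median log2 fold change of -0.04 was near the -0.03 of all genes, so the list did not shift as a whole. MYB, a progenitor factor gene, went from 107, 108 and 108 CPM to 49.5, 52.5 and 51 CPM, 2.11-fold lower, and LEF1 rose 1.61-fold to 5.2 ± 0.876 CPM. GATA3, BCL11B and RAG1 did not pass, at 7.97 and 8.06, 0.497 and 0.94, and 3.14 and 3.11 CPM. PTCRA, the pre-receptor α chain gene, went from 1.82, 1.35 and 1.76 CPM to 5.96, 6.34 and 6.02 CPM, 3.72-fold higher. Of 14 tested γδ and innate-like fate factors 7 rose and 2 fell, with a median of 0.11 that became -0.06 with library-size scaling, under which 4 fell. Without day 20 replicate 2, day 25 replicate 1 or day 25 replicate 2, only 1 fell. Those that rose at least 2-fold were EGR2, EGR3, NR4A1 and ETV5, the former 3 being also early response genes of many cells. ZBTB16, which encodes the PLZF factor, was 2.36-fold lower, at 14.5 ± 0.546 CPM.

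Of 15 tested T-cell surface markers 5 rose and 5 fell (median 0.21). CD4, which monocytes and macrophages also carry, went from 178, 163 and 161 CPM to 404, 408 and 409 CPM, 2.43-fold higher, while CD8A had 5 and 8 counts. CD52 rose 5.17-fold to 229 ± 2.85 CPM and CD1B 5.64-fold to 7.37 ± 0.201 CPM. CD2, an adhesion gene of T and natural killer cells, had 28 counts at day 20 and 2 at day 25, and CD7 fell 1.51-fold to 2.21 ± 0.169 CPM. Of the 7 macrophage markers 5 rose alongside CD4, and their part in its rise was not tested.

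Of 13 tested cytotoxic genes 5 fell (38.5%, against 25.1% of all genes tested) and none rose (median -0.64). NKG7 went from 67.7 to 46 CPM and CST7 from 36.5 to 23.3 CPM. Without day 25 replicate 2, 3 of the list fell and 1 rose, and 1 also rose without day 20 replicate 3. IFNG, GZMH and GZMK had 0 counts on both days, and GZMB 0.118 and 0.0346 CPM. The Notch list was divided, with 8 of 22 higher and 7 lower and a median of 0.07 that became -0.09 with library-size scaling, under which 5 were higher. DTX1, a Notch target gene, went from 4.5, 5.3 and 5.44 CPM to 12.3, 13.7 and 13.7 CPM, 2.61-fold higher, while HES1, another target, fell 1.3-fold to 10.5 ± 0.949 CPM. IL7R, the receptor gene for IL-7, rose 1.3-fold to 61.2 ± 2.97 CPM, and NOTCH1 stood at 260 and 262 CPM.

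Proliferation genes fell almost without exception, by moderate amounts. Of 36 DNA replication genes 35 were lower (median -0.77), and of 35 mitosis genes 35 were lower (median -0.75). MCM7, a subunit gene of the replicative helicase, went from 213, 224 and 219 CPM to 99.9, 97.3 and 101 CPM, 2.2-fold lower. CDK1, the mitotic kinase gene, went from 71, 69 and 71.7 CPM to 38.2, 33.4 and 35.3 CPM, 1.98-fold lower, and MKI67 fell 1.43-fold to 206 ± 7.33 CPM. MKI67 at day 15 stood at 160 CPM, so that day 25 was not its lowest level. POLE, a polymerase gene, was the replication gene not called (adjusted p = 0.056). Of 24 G1 regulators 16 fell and 4 rose: CCND1, the cyclin D1 gene, 2.63-fold, the inhibitor genes CDKN2A, 5.01-fold from 3.29 ± 0.127 to 16.5 ± 1.64 CPM, and CDKN2B, 2.18-fold, and CDKN1A from 183 to 225 CPM.

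Promoters of both groups were searched for letters known from cell-cycle genes. Sites of the E2F factors of S phase were searched as TTTGGCGC, TTTCCCGC or TTTCGCGC on both strands, and the CHR element of mitotic promoters as TTTGAA or TTCGAA. E2F letters were in 18 of 32 replication promoters (56.2%), 3 of 30 mitosis promoters (10%) and 2.79% of all promoters. CHR letters were in 2 of 32 (6.25%), 23 of 30 (76.7%) and 16.6%, and the CCAAT box in 59.4%, 76.7% and 35.7%. These shares describe the make-up of the lists, searched whatever the change of their members, and say nothing of day 25 against day 20. Binding was not measured. Shown for each group are the 3 called genes with the largest change in log2 whose letters ended before the start. The mitosis promoters come first, with CHR letters in capitals, and each window also holds a CCAAT box. The replication promoters follow with E2F letters in capitals, where GCGGGAAA is the reverse strand of TTTCCCGC:
CDC20 (chr1:43358869-43358968, plus strand): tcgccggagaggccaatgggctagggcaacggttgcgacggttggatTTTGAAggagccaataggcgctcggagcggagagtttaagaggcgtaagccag
HMMR (chr5:163460532-163460631, plus strand): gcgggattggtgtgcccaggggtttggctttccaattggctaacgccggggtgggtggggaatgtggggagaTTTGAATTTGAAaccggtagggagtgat
CDK1 (chr10:60778123-60778222, plus strand): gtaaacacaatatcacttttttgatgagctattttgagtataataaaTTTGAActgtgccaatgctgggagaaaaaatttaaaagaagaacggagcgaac
MCM7 (chr7:100101398-100101497, minus strand): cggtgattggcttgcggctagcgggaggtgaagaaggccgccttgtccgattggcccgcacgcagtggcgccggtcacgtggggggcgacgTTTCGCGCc
GINS2 (chr16:85688955-85689054, minus strand): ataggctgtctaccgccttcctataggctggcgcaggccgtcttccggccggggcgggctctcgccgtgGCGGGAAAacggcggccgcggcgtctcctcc
TYMS (chr18:657553-657652, plus strand): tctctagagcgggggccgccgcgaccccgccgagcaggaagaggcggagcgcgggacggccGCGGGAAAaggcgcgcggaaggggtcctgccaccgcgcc
CDC20, an activator gene of anaphase, fell from 56.3 to 25.5 CPM, and HMMR, a spindle protein gene, from 25.2 to 12.6 CPM. GINS2, a helicase component gene, fell from 19.9 to 10.3 CPM and TYMS, the thymidylate synthase gene, from 19.4 to 10.2 CPM.

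Protein synthesis genes fell as well. Of 75 cytosolic ribosomal protein genes 74 were lower and 0 higher (median -0.62), none by 2-fold, and their sum went from 30807 ± 942 to 20429 ± 282 CPM. RPLP0, a stalk protein gene, went from 1201, 1142 and 1127 CPM to 675, 668 and 669 CPM, 1.72-fold lower. RPS10, the member not called, stood at 1.04 and 0.824 CPM. The elongation factor gene EEF1A1 fell 1.32-fold to 4948 ± 105 CPM. MYC, which drives ribosome formation, went from 56.7, 54.8 and 56.8 CPM to 24.5, 25.2 and 22.8 CPM, 2.32-fold lower, and 17 of 20 genes of its target list fell. TFRC, the transferrin receptor gene, was among the 2 that rose (1 without day 20 replicate 2), 1.99-fold to 678 ± 15 CPM.

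**Figure D5:**
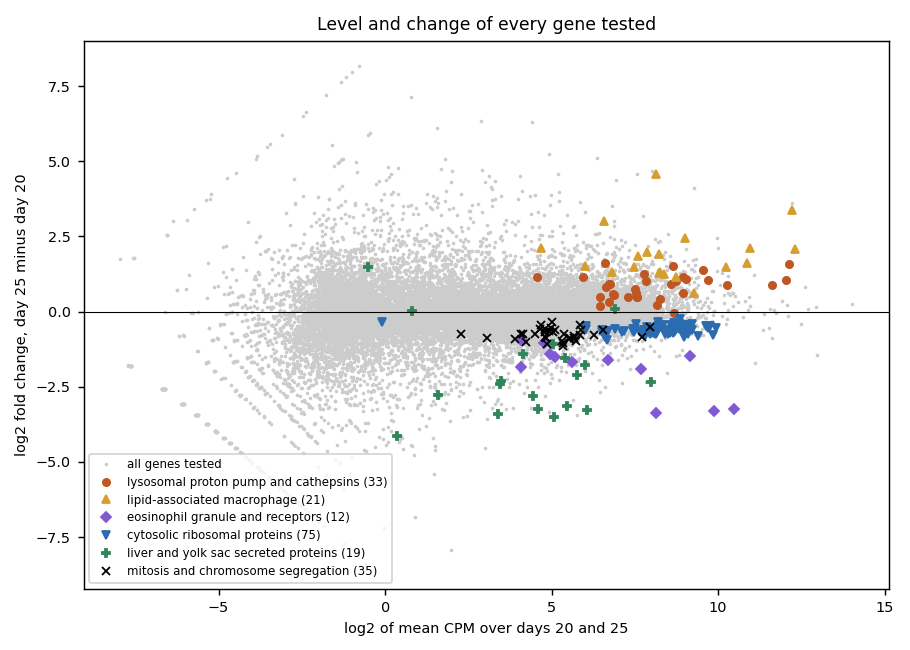
Log2 fold change (day 25 minus day 20) against log2 mean CPM over both days for the genes tested, without 23 that had 0 counts on both, and 6 lists marked. Ribosomal protein genes form a narrow band around -0.62, and lipid-associated macrophage genes lie above 0 except PLIN2.

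Chemokines and interferon-stimulated genes fell. Of 25 chemokine ligands 19 were lower and 3 higher (median -1.59). CXCL8, which attracts neutrophils, went from 630, 619 and 618 CPM to 227, 219 and 220 CPM, 2.81-fold lower. CCL20 fell 23-fold to 0.666 ± 0.105 CPM, CXCL5 10.6-fold and CXCL10, an interferon-induced ligand, 42.5-fold to 0.125 ± 0.00388 CPM. The 3 that rose were CXCL16 (2.82-fold to 296 ± 4.99 CPM), CCL24 (2.27-fold) and CCL22 (97.1 to 148 CPM). IL1B, the interleukin 1β gene, went from 155, 141 and 154 CPM to 24.1, 24.3 and 23 CPM, 6.32-fold lower, and IL6 fell 17.7-fold and IL12B 24.9-fold, both to under 1 CPM. IL18 rose 2.76-fold to 13.6 ± 1.09 CPM and TNF stood at 12.7 and 15.2 CPM.

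Of 27 interferon-stimulated genes 25 fell and 1 rose (median -0.72). IFIT1, which binds foreign RNA, went from 52.1, 50.5 and 48.7 CPM to 12.9, 11.6 and 11.9 CPM, 4.17-fold lower, and ISG15 fell 2.31-fold. OAS1 was the member that rose, from 50.3 to 56.5 CPM, a call that was lost with library-size scaling and without day 20 replicate 2 or day 25 replicate 3. The core of the interferon response element, GAAANNGAA on either strand, was in 14 of 20 promoters of the list (70%) and in 8.29% of all promoters. That share describes the make-up of the list, searched whatever the change of its members, and binding was not measured. Shown are the 3 called genes with the largest change in log2 whose letters ended before the start. The letters are in capitals, IFIT1 carrying 2 copies on the reverse strand:
IFIT1 (chr10:89392476-89392575, plus strand): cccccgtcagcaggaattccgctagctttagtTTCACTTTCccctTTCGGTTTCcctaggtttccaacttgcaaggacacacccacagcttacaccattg
ISG20 (chr15:88638902-88639001, plus strand): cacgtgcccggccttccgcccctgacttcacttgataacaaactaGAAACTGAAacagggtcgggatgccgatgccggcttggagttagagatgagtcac
IFI44L (chr1:78620330-78620429, plus strand): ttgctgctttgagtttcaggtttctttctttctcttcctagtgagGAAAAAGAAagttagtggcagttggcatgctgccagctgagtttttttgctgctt
ISG20, an exonuclease gene, fell from 4.29 to 1.37 CPM and IFI44L from 39.4 to 16 CPM. At day 15 IFIT1 had stood at 2491 CPM, so most of its decline preceded day 20.

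Most red cell and platelet genes fell. The list of globins, which also holds AHSP, a chaperone of α globin, had 10 tested members, of which 8 fell (median -4.11, or -3.75 with genes at 0 set to their bound) and HBM and HBQ1 did not pass. HBG2, a fetal globin gene, stood at 5.78, 5.24 and 5.08 CPM and then at 0.126, 0.313 and 0.256 CPM. HBG1 and HBG2, and HBA1 and HBA2, are near copies and uncertain. HBB had 51 counts over day 20 and 0 over day 25. Of 28 erythroid genes 20 fell and 4 rose, yet their sum went from 915 ± 7.29 to 1076 ± 15.5 CPM, with TFRC at 340 and 678 CPM. Among those that fell were KEL, 9.53-fold lower at 2.31 ± 0.458 CPM, and ALAS2, which starts haem synthesis, at 9.29 and 0.822 CPM. Of 22 megakaryocyte genes 19 fell and 3 rose (median -1.96), and 16 were at least 2-fold below each of the other days, against 2.65% of all genes. Those 22 genes were chosen with earlier results of these data known, so the share is a description only. Their sum went from 1937 ± 7.98 to 1234 ± 13.8 CPM, of which THBS1, which other cells also make, held 901 and 523 CPM, and PLEK, shared with leukocytes, rose from 287 to 437 CPM. PF4, the platelet factor 4 gene, went from 55.6, 55.9 and 55 CPM to 5.61, 5.5 and 5.22 CPM, 10.2-fold lower, from 2886 CPM at day 15. GATA1, a factor gene shared by red cells, platelets, eosinophils and mast cells, went from 25.1, 27.4 and 26.9 CPM to 7.25, 6.87 and 8.42 CPM, 3.55-fold lower.

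Progenitor genes and fetal genes fell in part. Of 26 stem and progenitor genes 14 fell and 7 rose (median -0.59), CD34 not passing at 1.31 and 1.1 CPM. HOXA10, a homeobox gene of blood progenitors, went from 18.8, 19.2 and 18 CPM to 5.42, 5.26 and 4.83 CPM, 3.61-fold lower, and MEIS1, its partner, fell 2.27-fold. Of 14 tested genes of the LIN28 and fetal programme 12 fell, with LIN28B 2.26-fold lower at 18.8 ± 1.35 CPM, and IGF2BP3 rose 1.25-fold. Of 12 tested pluripotency genes 7 fell and 1 rose (median -0.93), and their sum went from 775 ± 22.8 to 341 ± 7.54 CPM, most of it PODXL, which other tissues also express (678 and 283 CPM). Of the core factor genes, SOX2 was the member that rose, 2.67-fold from 0.663 to 1.78 CPM, POU5F1 was not called at 0.381 and 0.207 CPM, and NANOG had 11 and 10 counts and was not tested.

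Other tissues were visible in the same libraries. Liver and yolk sac genes fell in 16 of 19 tested members (median -2.33), their sum going from 1266 ± 12.4 to 359 ± 5.57 CPM. AFP, the fetal plasma protein gene, went from 423, 416 and 418 CPM to 83.8, 83.7 and 82.2 CPM, 5.03-fold lower, and its neighbour on chromosome 4, ALB, 9.56-fold. TTR, which carries thyroid hormone, fell 11.4-fold and SLC5A12, a lactate transporter gene, 10.8-fold from 99.8 ± 4.18 to 9.18 ± 0.419 CPM. Epithelial genes fell in 9 of 17 members, with CDH1, the E-cadherin gene, 5.65-fold lower at 29.1 ± 0.838 CPM and KRT8 2.72-fold lower. ST14, a membrane serine protease gene that macrophages can express, and its inhibitor gene SPINT1 rose 3.19-fold and 2.88-fold.

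Stromal genes were split, 9 of 23 higher and 9 lower. COL3A1, a fibrillar collagen gene, went from 4079, 4059 and 4163 CPM to 2228, 2264 and 2177 CPM, 1.84-fold lower, and DCN and LUM fell 2.48-fold and 2.78-fold. COL6A1 went the other way, from 284, 275 and 284 CPM to 915, 917 and 932 CPM, 3.28-fold higher, as did FN1. The 4 stromal markers went from a sum of 5589 to 3707 CPM, with 3 called lower and 1 higher. Of the lower ones, PDGFRA lost its call with DESeq2 or its size factors. It also lost it without day 20 replicate 1 or 2 or day 25 replicate 1. Which cells made the added FN1 was not tested. Endothelial genes rose in 12 of 24 members and fell in 5 (median 0.55), with TIE1 4.3-fold and VWF 5.48-fold higher while KDR fell 3.46-fold and TEK 2.64-fold. VWF is also in the megakaryocyte list. The 4 endothelial markers went from a sum of 363 to 240 CPM, with 1 called higher and 3 lower. Of 13 tested neural genes 9 rose and 3 fell (median 1.2), among them NES at 34.4 and 83.2 CPM, TUBB3 at 17.1 and 44 CPM and DCX at 8.79 and 21.5 CPM. STMN2, a gene of growing neurons, was lower, at 53.3 and 27.2 CPM.

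The list of glycolysis and glucose transport was divided, 13 of 25 genes higher and 9 lower, with a median of 0.12 that became -0.05 with library-size scaling. SLC2A1, the GLUT1 gene, went from 574, 572 and 553 CPM to 137, 142 and 136 CPM, 4.09-fold lower, and SLC2A6, a transporter gene of lysosomes in inflammatory macrophages, fell 4.07-fold. SLC2A5, the fructose transporter gene, rose 3.01-fold and HK3, the hexokinase gene of myeloid cells, 3.25-fold. PHGDH, which opens serine synthesis, fell 3.02-fold and XBP1, a secretory stress factor gene, 1.92-fold. Iron genes changed as well: FTL and FTH1, the ferritin chain genes, rose 1.77-fold and 1.62-fold, and SLC40A1, the iron exporter gene, went from 193, 192 and 186 CPM to 64, 61.1 and 63.3 CPM, 3.03-fold lower. GCLC, which starts glutathione synthesis, rose 4.4-fold to 199 ± 5.06 CPM.

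Set against all earlier days, day 25 was at least 2-fold the highest for 986 genes (4.89%) and at least 2-fold the lowest for 535 (2.65%). These counts share the day 25 libraries across their 3 contrasts. Among the highest, MMP12, MMP7 and CHIT1 had 0 counts at day 10 and stood at 4.56, 0.746 and 7.29 CPM at day 15. Lysosomal genes were at their highest by that rule in 10 of 33 members and osteoclast genes in 9 of 14. Among the lowest were HBA2, TUBAL3, TRAPPC3L, RD3L and OR2AT4, of which OR2AT4, an olfactory receptor gene, went from 170 CPM at day 15 to 3.52 at day 20 and 0.123 at day 25. RD3L had 0 counts at day 25, and its fall lost the call without day 20 replicate 1 (edgeR adjusted p = 0.076) and with limma-voom (0.081). Of the cell-cycle genes, 2 of 36 replication and 1 of 35 mitosis genes were lowest by that rule, close to the 2.65% of all genes.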

How the data were processed

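The authors deposited raw counts of reads for each gene and library, per the file headers. Libraries were prepared from total RNA with a ligation-mediated protocol and sequenced as single reads, per the labels, and the submitters' processing notes name GRCh38. Which aligner, counter and annotation were used, and whether strand was, is not stated in those sources, and reads of overlapping or antisense genes may be mixed. Reads carry no molecular identifiers, and the floor of 3 counts covers counting error only.

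Of 36601 genes, 25321 had a symbol, and the others held 0.44% of counts and stayed in the test. Coordinates are from GENCODE 29. Then edgeR 4.0.16 in R 4.3.3 kept 20183 genes (filterByExpr, minimum count 10), scaled by TMM and fitted the 12 libraries without covariates (glmQLFit, robust), and glmQLFTest compared day 25 with day 20 with Benjamini-Hochberg adjusted p over all genes tested. The fit was also run on counts simulated from day 20 means, with a single spread for all genes and few changed genes. These data differ on both points, so that run does not measure the accuracy of the calls given here. Gene lists, 64 in all, were described by their calls and median, with no set test. Members and lists were chosen with earlier results of these data known. The rule for named genes took the 15 largest rises and falls in log2 fold change and the 10 in CPM at 10 CPM or more without overlap, up to 4 called members per list, the cell markers, and 5 genes highest and 5 lowest at day 25. Other members were named after their values were seen. Promoters are RefSeq's, from 250 bases before to 50 after a start. Alternatives used DESeq2 1.42.0, limma 3.58.1 (voom), other scalings and filters, fits to 6 libraries, thinning, a replicate block and leaving out each library. Tables used Python 3.11.15 with pandas 2.3.3 and numpy 2.4.6, and figures matplotlib 3.10.9.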

Additional observations from a re-analysis of the deposited data

How the results depend on the processing

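The counts of genes higher, lower and at least 2-fold changed stayed within 1.5 times under the alternatives run, with 9730 to 10859 genes called in place of 10023 at the same threshold when no library was left out and 9133 to 9372 when each was. At an adjusted p under 0.01, 4167 were higher and 4039 lower. Library-size scaling gave 3414 higher and 7445 lower. A replicate block gave 9760 calls, 4832 higher and 4928 lower. Same-numbered libraries of days 20 and 25 did not deviate together (correlations over 9824 genes of 0.02, 0.016 and -0.082). Those of differing number ran from -0.089 to 0.075. Whether the numbers pair libraries stays unknown, since a shared effect smaller than the noise among libraries would not show. Of 309 tested genes named by the rule, 11 changed their call in at least 1 of 16 settings, and no value reversed among them. Genes named outside the rule, OAS1 among them, are not in that count. The medians of the p53 target, hypoxia, mitochondrially encoded, oxidative phosphorylation and metallothionein lists became negative with library-size scaling (-0.03, -0.03, -0.09, -0.08 and -0.04), and that of inflammatory cytokines, -0.02, changed sign in 7 settings. Depth limits the CD3 genes, TRDC and most globin genes, whose day 25 levels rest on few counts.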

Other observations

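Early response genes, switched on within minutes of many stimuli, changed in both directions: of 20 members 12 were higher and 6 lower (median 0.22). ATF3 went from 31, 27.8 and 28.1 CPM to 136, 128 and 144 CPM, 4.69-fold higher, and EGR3 from 19.4, 20.1 and 17.5 CPM to 88.9, 95.7 and 81.9 CPM, 4.67-fold higher. FOS, a partner of JUN, was lower, at 806 and 483 CPM. Genes of lipid mediators were divided, with 7 of 17 higher and 8 lower. PTGS2, the inducible cyclooxygenase gene, stood at 44.9 and 104 CPM, and ALOX15, a lipoxygenase gene of eosinophils and macrophages, at 155 and 51 CPM, both called.

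Receptors of migration were also divided, with 7 of 18 tested members higher and 9 lower. CXCR5, a homing receptor gene of lymphoid follicles, went from 0.335, 0.287 and 0.508 CPM to 3.44, 4.22 and 3.07 CPM, 9.44-fold higher, while CCR2, a monocyte receptor gene, stood at 26.9 and 11.3 CPM. Of 5 tested B-cell genes, BLNK (1.53 and 8.02 CPM), CD22 (7.22 and 17 CPM) and EBF1 (2.03 and 4.04 CPM) were higher, and CD79A and CD79B lower. The calgranulin genes S100A8 and S100A9 were higher, at 684 and 1115 CPM and at 996 and 1541 CPM, and 8 of the 10 genes in their list rose.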
